A study of Rattus norvegicus with 12 samples.

Results

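Hox genes encode homeodomain transcription factors that lie in 4 clusters, A to D, in the order in which they are used along the body axis. Low paralogue numbers mark anterior levels and high numbers posterior and distal levels of the limb and tail. Adult fibroblasts of skin and subcutaneous tissue keep a Hox pattern that depends on the body site they come from, and the Hox proteins bind DNA together with TALE cofactors of the Pbx and Meis families.

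The Hox cluster genes were taken as every row of the expression table whose symbol is Hox followed by a cluster letter and a number. There were 39 such rows with 38 symbols, among 22062 rows, and Hoxa5 had 2 rows that were kept apart. The 16 rows that reached 1 FPKM (fragments per kilobase of transcript, scaled to the mapped fragments of the library) in 3 or more of the 12 libraries are described one by one and were tested. Of the other rows, 8 were listed at 0 in every library and 15 were low.

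The libraries came from rats carrying implants of GelMA, the hydrogel gelatin methacryloyl, as the control material, or of MFN+GelMA as the test material. MFN is not expanded in the labels, and the series title names a microfiber. Tissue labelled as subcutaneous tissue or muscle was taken at 2 weeks (2W) and 4 weeks (4W), so that material and time gave 4 groups of 3 libraries. Strain, age, sex and the body site of the implant are not given in the labels. The labels do not say that replicates are separate animals, so p-values measure the spread between these libraries, which may be technical.

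The libraries held between 11405028 and 14043411 fragments. At this depth 1 FPKM corresponded to between 6.22 fragments for Hoxb6 and 34.1 fragments for Hoxc5, so values near 1 FPKM rest on few fragments. The labelled tissue was checked against markers. The fibroblast marker Dcn stood between 1383 and 4877 FPKM, and the satellite cell genes Pax7 and Myod1 were listed at 0 in all 12 libraries. Muscle fibre RNA was high in 1 library only, MFN+GelMA 2W replicate 2, with Acta1 at 275 FPKM against at most 0.662 in the others. The fat marker Adipoq reached 2118 FPKM in GelMA 4W replicate 2 against at most 153.7 in the others, and the endothelial marker Cdh5 was 27.4 FPKM in GelMA 2W replicate 3 against 113.5 and 128.2 in the other GelMA 2W libraries. These 3 libraries stand apart, and results that depend on them are given with and without them.

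The sequences that frame the expressed range are the starts of the cluster D genes at its posterior end, Hoxd8 and Hoxd9, which were expressed, Hoxd10, which was low, and Hoxd11, which was listed at 0, with that of Hoxc4, which had the smallest adjusted p among the Hox genes at 4 weeks. Each is the 300-base window around the gene start in RefSeq on the GRCr8 build, plus strand, 5′ to 3′, with CG pairs in capitals.
Hoxd8: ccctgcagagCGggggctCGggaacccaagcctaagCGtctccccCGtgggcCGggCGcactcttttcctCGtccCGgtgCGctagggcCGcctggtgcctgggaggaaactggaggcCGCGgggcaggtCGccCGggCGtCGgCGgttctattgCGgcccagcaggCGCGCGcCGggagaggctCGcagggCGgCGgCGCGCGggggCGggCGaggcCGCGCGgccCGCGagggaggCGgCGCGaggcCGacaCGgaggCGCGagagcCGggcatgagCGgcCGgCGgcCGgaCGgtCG
Hoxd9: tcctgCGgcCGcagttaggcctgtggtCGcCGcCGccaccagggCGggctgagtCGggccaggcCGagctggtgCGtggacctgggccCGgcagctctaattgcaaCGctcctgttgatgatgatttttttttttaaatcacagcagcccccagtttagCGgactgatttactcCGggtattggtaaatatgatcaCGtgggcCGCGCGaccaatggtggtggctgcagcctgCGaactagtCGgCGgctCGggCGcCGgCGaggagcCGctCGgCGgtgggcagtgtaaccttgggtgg
Hoxd10: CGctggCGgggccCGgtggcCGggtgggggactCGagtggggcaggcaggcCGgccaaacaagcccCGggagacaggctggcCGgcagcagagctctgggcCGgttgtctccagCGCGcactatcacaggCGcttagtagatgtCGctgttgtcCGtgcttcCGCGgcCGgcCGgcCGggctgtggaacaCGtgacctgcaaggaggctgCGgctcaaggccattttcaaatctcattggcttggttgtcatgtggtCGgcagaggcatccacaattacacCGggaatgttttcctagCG
Hoxd11: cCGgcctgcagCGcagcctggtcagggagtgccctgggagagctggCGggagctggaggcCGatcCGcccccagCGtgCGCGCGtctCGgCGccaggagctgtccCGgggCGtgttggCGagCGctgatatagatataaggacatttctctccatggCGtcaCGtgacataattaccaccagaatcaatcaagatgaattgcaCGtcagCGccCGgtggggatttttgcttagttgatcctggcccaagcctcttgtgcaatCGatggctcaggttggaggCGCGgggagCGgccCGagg
Hoxc4: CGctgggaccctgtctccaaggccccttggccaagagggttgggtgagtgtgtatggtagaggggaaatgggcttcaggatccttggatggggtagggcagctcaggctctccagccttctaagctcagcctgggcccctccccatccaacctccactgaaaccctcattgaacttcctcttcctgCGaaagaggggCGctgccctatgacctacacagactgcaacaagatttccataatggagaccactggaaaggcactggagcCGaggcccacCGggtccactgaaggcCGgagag
The windows lie at chr3:80014973-80015272 (Hoxd8), chr3:80007756-80008055 (Hoxd9), chr3:80001697-80001996 (Hoxd10), chr3:79992144-79992443 (Hoxd11) and chr7:136048809-136049108 (Hoxc4). They hold 49 CG pairs at Hoxd8, 27 at Hoxd9, 24 at Hoxd10, 25 at Hoxd11 and 6 at Hoxc4, where the median of all 33469 windows of 300 bases is 7 and the 75th percentile is 19. Of the 20 Hox windows in the table, for 19 symbols, 12 lie above that percentile. Cluster B has a window for Hoxb1 only and cluster C for Hoxc4 only, and the rest belong to clusters A and D. Of the described genes only Hoxc4, Hoxd4, Hoxd8 and Hoxd9 have a window, so these counts are mostly of low or silent genes. The motifs searched on both strands were TGATNNAT, the core of a Hox and Pbx site, found in 4 Hox windows and in 9.1% of all windows, the TATA box TATAAA, found in 4 and in 14.2%, and CCAAT, found in 12 and in 37.5%. Hoxd9, which was expressed, and Hoxd11, which was listed at 0, have similar counts of CG pairs, and Hoxd11 holds 1 TGATNNAT match while Hoxd8 and Hoxd9 hold none. A match describes the letters only.

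Middle paralogue positions and cluster C carried much of the Hox expression. In the 12 libraries the 39 rows summed to between 24.2 and 77.4 FPKM, and paralogue positions 6 to 8 held between 40.8% and 65.8% of that sum. Cluster C held between 40.0% and 70.6%. Positions 11 to 13 summed to at most 0.0957 FPKM, which came from Hoxc11 in a single library. Posterior genes listed at 0 in all libraries were Hoxa13, Hoxb13, Hoxc12, Hoxc13, Hoxd11, Hoxd12 and Hoxd13, and the anterior Hoxb1 was listed at 0 as well. The described genes were 7 of 10 rows of cluster B, 6 of 9 of cluster C, 3 of 9 of cluster D and 0 of 11 of cluster A.

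**Figure D1:**
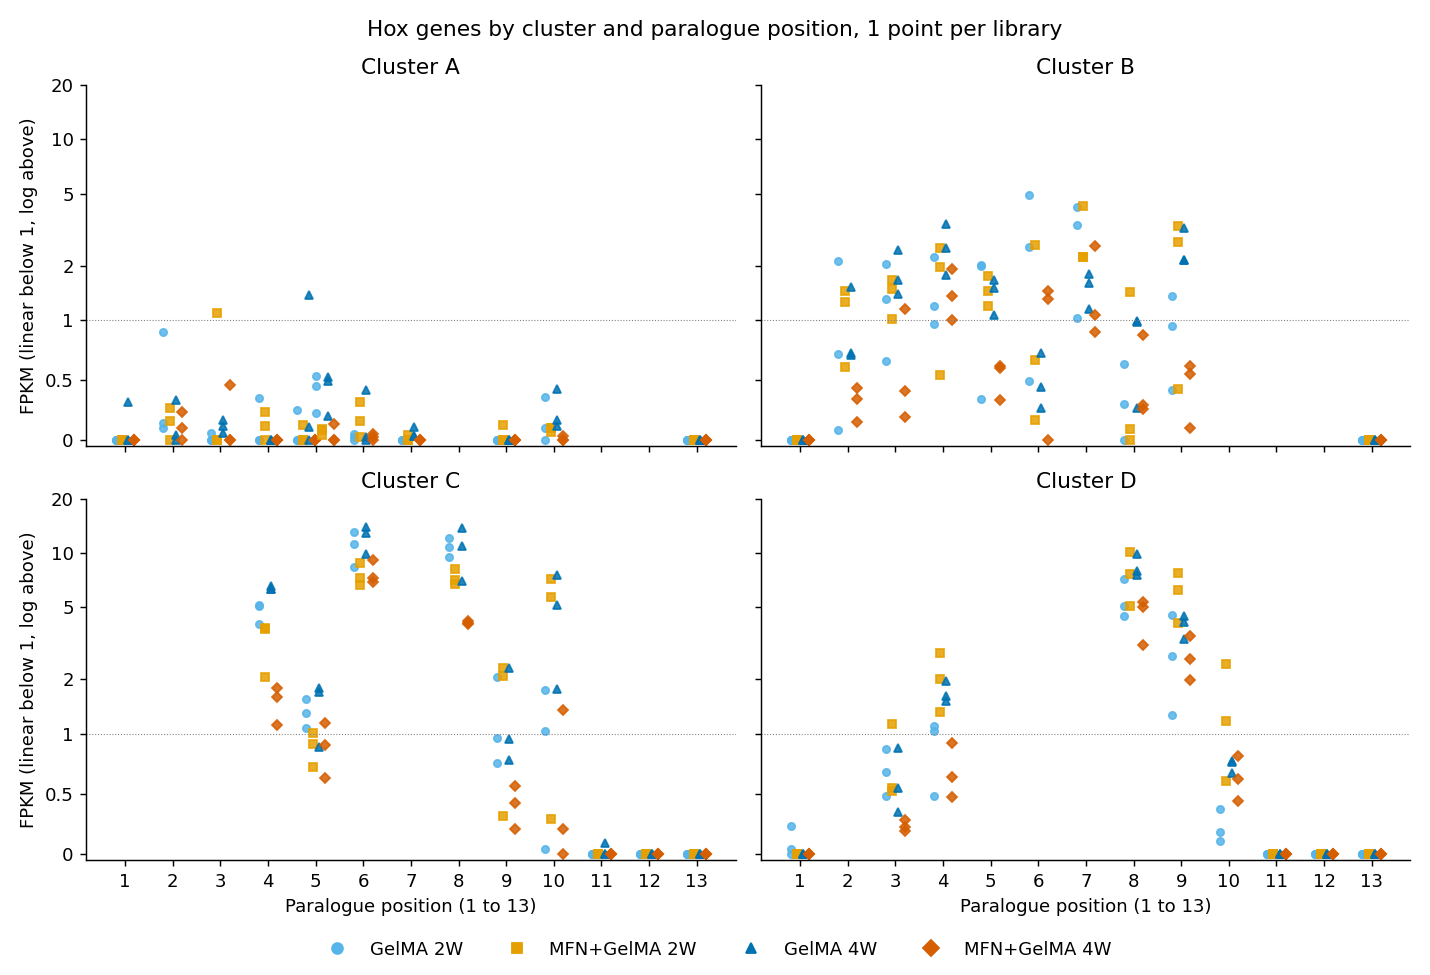
FPKM (vertical axis, linear below 1 and logarithmic above) of every Hox row by paralogue position (horizontal axis), 1 panel per cluster and 1 point per library; Hoxa5 has 2 columns. Values above 1 FPKM run from positions 2 to 9 in cluster B, 4 to 10 in cluster C and 3 to 10 in cluster D, while no cluster A row exceeds 1.37 FPKM and positions 11 to 13 lie at or near 0; the dotted line marks 1 FPKM.

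Cluster A, on chromosome 4 (rn6, minus strand), was low throughout. Its 11 rows stood at or below 1.37 FPKM, a value of 1 Hoxa5 row in GelMA 4W replicate 2, and the 11 rows together held 235 fragments over all libraries, against 6991 for the 9 rows of cluster C. Of the 11 rows 5 share 1 merged locus, chr4:82173292-82263302, with other genes, so the division of fragments among those 5 is uncertain. Hoxa13, which patterns the distal limb and is a mark of fibroblasts from hands and feet in human, was listed at 0.

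In cluster C, on chromosome 7 (plus strand), the order of levels by mean FPKM was Hoxc6 at 9.64, Hoxc8 at 8.21, Hoxc4 at 3.98, Hoxc10 at 2.67, Hoxc9 at 1.14 and Hoxc5 at 1.14. Hoxc6 and Hoxc8, which in mouse pattern the thoracic level, overlapped in range, from 6.65 to 14 FPKM and from 4.05 to 13.8 FPKM. Hoxc10 ranged from 0 to 7.60 FPKM. Hoxc11 reached 0.0957 FPKM in 1 library, so that the described genes ended at position 10. Hoxc5 stayed between 0.629 and 1.78 FPKM. Hoxc9, which in mouse defines thoracic motor columns, ranged from 0.211 to 2.31 FPKM, and its 3 MFN+GelMA 4W libraries, at 0.211, 0.423 and 0.568 FPKM, lay below all 3 GelMA 4W libraries, at 2.31, 0.780 and 0.957 FPKM, without passing the test described below (limma adjusted p = 0.196).

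In cluster D, on chromosome 3 (plus strand), Hoxd8 had a mean of 6.55 FPKM and Hoxd9 of 3.89 FPKM, and both exceeded 1 FPKM in all 12 libraries. Hoxd4, an anterior gene whose hindbrain expression in mouse depends on retinoic acid, had a mean of 1.32 FPKM; its locus overlaps another gene of the table, AABR07052559.1. The strand setting used for counting is not given in the sources used here, so reads of that neighbour could be included. Just outside the threshold of 3 libraries, Hoxd10 reached 1 FPKM in 2 libraries, MFN+GelMA 2W replicates 2 and 3, at 1.18 and 2.44 FPKM. Hoxd3 did so in 1 library at 1.13 FPKM.

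In cluster B, on chromosome 10 (plus strand), the 7 described genes had means from 0.844 FPKM for Hoxb2 to 2.20 FPKM for Hoxb7. Hoxb2, just inside the threshold with 4 libraries at 1 FPKM or more, ranged from 0.0880 to 2.12 FPKM, and Hoxc9 was the other gene with 4. Hoxb8, just outside, reached 1 FPKM in 1 library at 1.42 FPKM. Hoxb6, which in mouse marks lateral plate mesoderm, rested on 0 to 30 fragments a library and reached 4.94 FPKM in GelMA 2W replicate 2. Hoxb4, known for its role in blood stem cells, ranged from 0.545 to 3.39 FPKM, Hoxb5 from 0.336 to 2.02 FPKM and Hoxb7 from 0.901 to 4.27 FPKM. None of the 3 was called between the materials at either time in the fit over all 12 libraries. For Hoxb5 at 4 weeks, whose groups did not overlap, the limma adjusted p was 0.118 in that fit and 0.0377 when only the libraries compared were fitted.

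The central comparison asked how the material altered the tissue at 4 weeks. Of the 16 described Hox genes, 7 fell in MFN+GelMA and 0 rose, by limma on log2(FPKM + 1) with Benjamini-Hochberg adjustment over 12270 tested genes and a threshold of 0.05. Among all tested genes 9.27% were called lower and 15.3% higher. The 7 were Hoxc4, Hoxc6 and Hoxc8 of cluster C, Hoxd4 and Hoxd8 of cluster D, and Hoxb3 and Hoxb9 of cluster B. Their positions ran from 3 to 9. The median log2 fold change of the 16 genes was −0.68 beside 0.05 for all tested genes, and 15 of the 16 estimates were negative, beside 45.1% of all genes. Here and below a fold change is a difference on the log2(FPKM + 1) scale, which understates the change of low genes.

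Hoxc4, a cervical to upper thoracic gene, had 6.54, 6.33 and 6.36 FPKM in GelMA 4W and 1.59, 1.12 and 1.78 FPKM in MFN+GelMA 4W. All MFN+GelMA 4W values were below all other 9 libraries, the lowest of which was 2.07 FPKM. The mean was 6.41 ± 0.116 (SD, n = 3) in GelMA 4W and 1.497 ± 0.342 in MFN+GelMA 4W, and the log2 fold change was −1.58 (SE 0.19, limma adjusted p = 0.000219).

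Hoxc8, which in mouse shapes ribs and brachial motor neurons, had 13.8, 7.01 and 10.9 FPKM in GelMA 4W and 4.10, 4.23 and 4.05 FPKM in MFN+GelMA 4W. The MFN+GelMA libraries lay close together and below every other library of the series. Hoxc8 fell by 1.13 (SE 0.19, limma adjusted p = 0.00157). Hoxc6, a neighbour in the cluster, had 14, 9.95 and 12.98 FPKM in GelMA 4W and 7.29, 6.95 and 9.13 FPKM in MFN+GelMA 4W. The groups did not overlap, but the gap was narrow, and Hoxc6 fell by 0.59 (SE 0.18, limma adjusted p = 0.0344).

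Of the proportions within cluster C, those of Hoxc4 and Hoxc8 to Hoxc6 also differed. Hoxc4 was between 0.161 and 0.218 of Hoxc6 in the MFN+GelMA 4W libraries and between 0.234 and 0.637 in the other 9. Hoxc8 was between 0.443 and 0.608 of Hoxc6 there and between 0.705 and 1.29 elsewhere. Neither range overlapped that of the other libraries. The ratio of Hoxc10 to Hoxc8 did overlap, at 0 to 0.320 in MFN+GelMA 4W and 0.00500 to 1.07 in the other 9. These ratios of FPKM rest on the same values as the calls above, are a description and were not tested.

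In cluster D, Hoxd8 had 9.93, 7.93 and 7.57 FPKM in GelMA 4W and 3.10, 5.37 and 5.03 FPKM in MFN+GelMA 4W. The groups did not overlap, and Hoxd8 fell by 0.80 (SE 0.25, limma adjusted p = 0.0345). Hoxd4 had 1.96, 1.62 and 1.51 FPKM against 0.476, 0.925 and 0.639 FPKM. It too was lower in every MFN+GelMA library, and fell by 0.69 (SE 0.22, limma adjusted p = 0.0427). Their neighbour Hoxd9 had 4.48, 4.15 and 3.36 FPKM against 1.99, 3.48 and 2.61 FPKM. There the groups overlapped, and the log2 fold change of −0.45 (SE 0.30) did not pass (limma adjusted p = 0.314).

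In cluster B, Hoxb9, which in mouse patterns the thoracic level, had 2.15, 3.21 and 2.13 FPKM in GelMA 4W and 0.102, 0.615 and 0.551 FPKM in MFN+GelMA 4W. No MFN+GelMA library reached the lowest GelMA library, and Hoxb9 fell by 1.31 (SE 0.38, limma adjusted p = 0.0258), on 1 to 34 fragments a library over the series. Hoxb3, an anterior gene also expressed in endothelial cells, had 2.43, 1.67 and 1.39 FPKM against 0.192, 1.16 and 0.412 FPKM and fell by 0.86 (SE 0.28, limma adjusted p = 0.0435). Its groups did not overlap, and its margin to the threshold was small. The other cluster B genes had estimates from −0.66 for Hoxb5 to 0.28 for Hoxb6, and none passed.

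**Figure D2:**
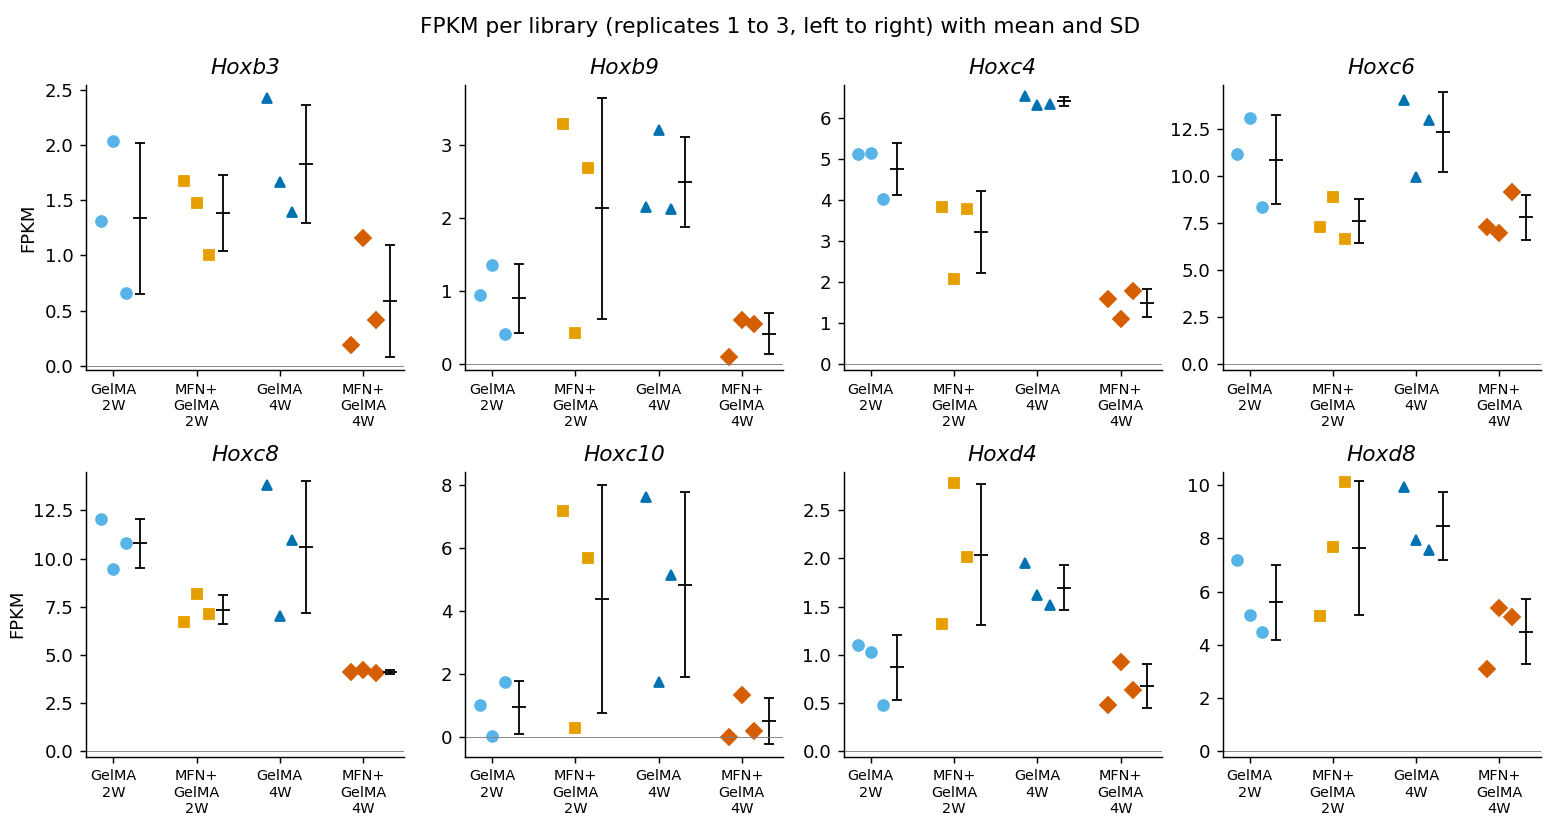
FPKM (vertical axis) of the 7 Hox genes called at 4 weeks and of Hoxc10 in each library, by group (horizontal axis), with points for replicates 1 to 3 from left to right and bars for mean and SD. The MFN+GelMA 4W points of Hoxc4 and Hoxc8 lie below every other library, while the Hoxc10 points of MFN+GelMA 2W and GelMA 4W spread from 0.290 to 7.18 and from 1.76 to 7.60 FPKM.

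Of the 16 genes 11 did not overlap between the groups at 4 weeks and were lower in MFN+GelMA, beside 18.6% of all tested genes. Of all genes called at 4 weeks, 62.3% were higher in MFN+GelMA. This share was 49.2% when FPKM were scaled to a common sum and 49.9% under upper quartile scaling. It was 54.0% under median of ratios scaling and 47.6% with the count-like columns. The 7 Hox calls numbered 7, 7, 7 and 8 there. Hoxc4 and Hoxc8 were called in all 12 fits that left out a library, with limma adjusted p at most 0.00167 and 0.00780. The call was lost in 8 of these fits for Hoxb3, 8 for Hoxd4, 5 for Hoxd8, 4 for Hoxb9 and 4 for Hoxc6. The count of called Hox genes was 2, 4 and 3 when GelMA 4W replicate 1, 2 or 3 was left out in turn. It was 2 and 3 when replicate 1 or 3 of MFN+GelMA 4W was left out.

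At 2 weeks 0 of the 16 Hox genes passed the threshold in limma, where 0.497% of all tested genes were called. An unadjusted p under 0.05 was found for 5 of the 16, beside 1742 of all 12270 tested genes. Those 5 moved in both directions. Hoxc4, Hoxc6 and Hoxc8 had estimates of −0.47, −0.45 and −0.50, each with an SE of 0.18 or 0.19, and Hoxd4 and Hoxd9 of 0.69 (SE 0.22) and 0.94 (SE 0.30). Hoxd9 had 2.70, 4.52 and 1.27 FPKM in GelMA 2W and 4.12, 7.79 and 6.21 FPKM in MFN+GelMA 2W. The groups overlapped by 1 library. Hoxc4, Hoxc5 and Hoxc8 did not overlap and were lower in MFN+GelMA, beside 8.48% of all genes, and Hoxd4 did not overlap and was higher, beside 9.7%.

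**Figure D3:**
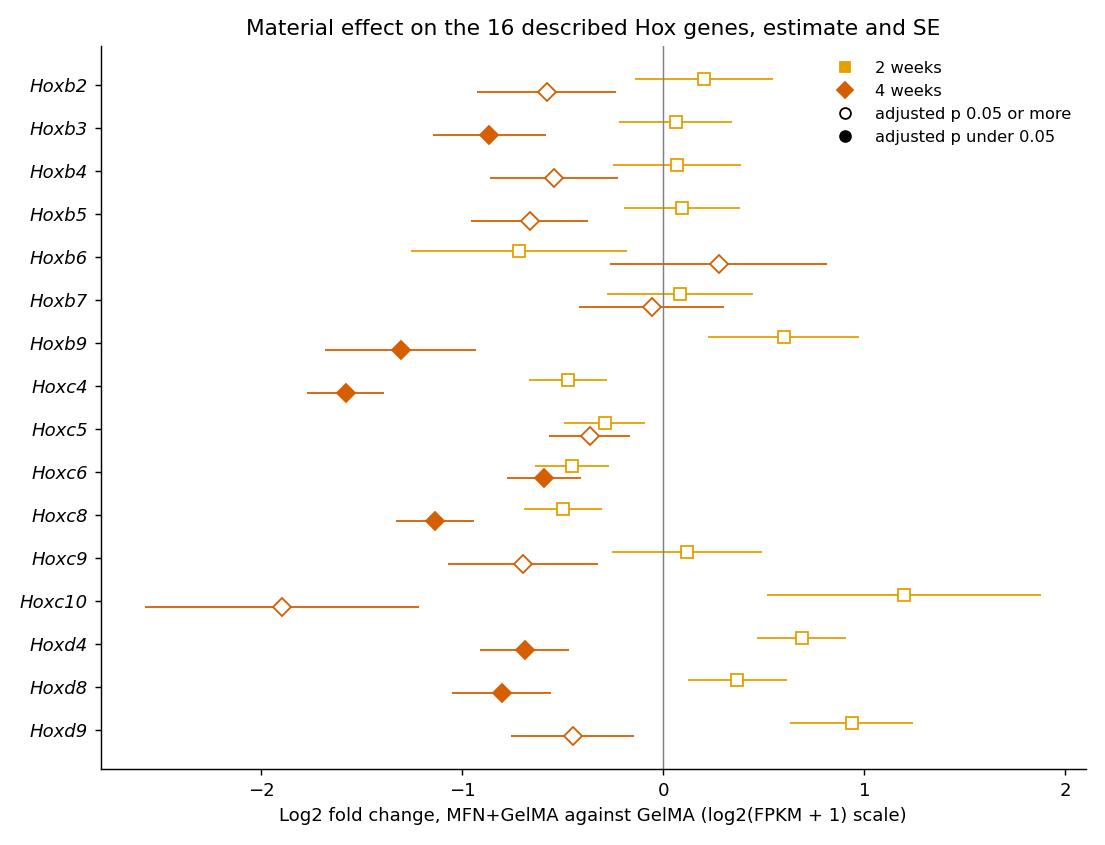
Log2 fold change of MFN+GelMA against GelMA (horizontal axis, log2(FPKM + 1) scale) with SE for each of the 16 described Hox genes at 2 weeks (squares) and 4 weeks (diamonds), filled where the adjusted p is under 0.05. At 4 weeks 15 of 16 estimates are negative and 7 are filled, and at 2 weeks 5 are negative and 0 are filled.

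The 2 times were then compared within each material. These comparisons share libraries with those above. In MFN+GelMA 3 of the 16 genes fell and 0 rose, beside 8.11% of all tested genes called lower. Hoxc4 went from 3.84, 2.07 and 3.78 FPKM at 2 weeks to 1.59, 1.12 and 1.78 FPKM at 4 weeks and fell by 0.74 (SE 0.19, limma adjusted p = 0.0208). Hoxc8 went from 6.70, 8.17 and 7.12 FPKM to 4.10, 4.23 and 4.05 FPKM and fell by 0.70 (SE 0.19, limma adjusted p = 0.0281). Hoxd4 went from 1.32, 2.78 and 2.01 FPKM to 0.476, 0.925 and 0.639 FPKM and fell by 0.84 (SE 0.22, limma adjusted p = 0.0232). In all 3 genes each 4-week library lay below each 2-week library, as it did for 6 of the 16 genes in all, beside 17.6% of all genes. The count was 5 without GelMA 2W replicate 3. It was 1 when MFN+GelMA 2W replicate 3 or any MFN+GelMA library of 4 weeks was left out. Over the 12 fits that left out a library the call was lost in 3 for Hoxc4, 5 for Hoxc8 and 4 for Hoxd4. For Hoxc8 the largest limma adjusted p of these fits was 0.0839, without MFN+GelMA 2W replicate 2, which stands apart. Without all 3 libraries that stand apart the count was 4. Scaling FPKM to a common sum shifted the median of all genes from 0.01 to −0.12 in this comparison, with 4 Hox genes lower.

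In GelMA 0 of the 16 genes passed between 2 and 4 weeks in limma, beside 2.23% of all genes. Beside 2233 of all 12270 tested genes, a similar share, 3 of the 16 had an unadjusted p under 0.05. These were Hoxb9 with an estimate of 0.89 (SE 0.38), Hoxc10 with 1.55 (SE 0.68) and Hoxd4 with 0.54 (SE 0.22). Hoxb9, Hoxc10, Hoxc4, Hoxd4 and Hoxd8 were higher in every 4-week library than in any 2-week library, beside 10.3% of all genes.

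The difference between the material effects at 4 and 2 weeks was tested as an interaction. It passed for 4 genes, all negative, beside 4.98% of all tested genes called in that direction. The estimate was −1.38 for Hoxd4 (SE 0.31, limma adjusted p = 0.0164) and −1.11 for Hoxc4 (SE 0.27, limma adjusted p = 0.0216). It was −1.90 for Hoxb9 (SE 0.53, limma adjusted p = 0.0370) and −1.17 for Hoxd8 (SE 0.35, limma adjusted p = 0.0465). For Hoxd4, Hoxb9 and Hoxd8 the estimate was positive at 2 weeks and negative at 4 weeks, whereas for Hoxc4 it was negative at both. Hoxd4 was called in all 12 fits that left out a library. The call was lost in 2 of these fits for Hoxc4, in 10 for Hoxb9 and in 10 for Hoxd8. The count of called Hox genes fell to 1 without GelMA 4W replicate 1 and to 2 without any of 6 others.

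Hoxc10, the most posterior gene with high values, which in mouse acts at the lumbar level and in subcutaneous fat, had the largest SE of the 16 genes. In GelMA it had 1.03, 0.0474 and 1.75 FPKM at 2 weeks and 7.60, 1.76 and 5.15 FPKM at 4 weeks. In MFN+GelMA it had 7.18, 0.290 and 5.69 FPKM at 2 weeks and 0, 1.35 and 0.208 FPKM at 4 weeks. Replicate 2 was the lowest of its group in 3 groups and the highest in MFN+GelMA 4W. The muscle and fat markers peaked in the replicates 2 of MFN+GelMA 2W and GelMA 4W, and their part in the Hoxc10 values was not tested. With all 12 libraries the log2 fold change between materials was 1.20 (SE 0.68, limma adjusted p = 0.449) at 2 weeks and −1.90 (SE 0.68, limma adjusted p = 0.0634) at 4 weeks. Leaving out the 3 libraries that stand apart left 2 libraries in each of GelMA 2W, MFN+GelMA 2W and GelMA 4W. It removed the lowest Hoxc10 values of MFN+GelMA 2W (0.290 FPKM) and GelMA 4W (1.76 FPKM) and the highest of GelMA 2W (1.75 FPKM). Each removal widened the difference between the materials. Without these 3 libraries Hoxc10 was higher in MFN+GelMA at 2 weeks by 2.34 (SE 0.44, limma adjusted p = 0.0239). At 4 weeks its log2 fold change was −2.36 (SE 0.40, limma adjusted p = 0.00314). The adjusted p ranged from 0.0239 to 0.718 at 2 weeks and from 0.00314 to 0.989 at 4 weeks over 28 alternatives, and it passed in 1 and in 7 of them. Without the same libraries Hoxb3 and Hoxd8 were not called at 4 weeks, and the count was 6.

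Of 21 tested fibroblast markers 16 fell and 1 rose, Lum, at 4 weeks, beside 9.27% of all tested genes called lower and 15.3% called higher. Their median log2 fold change was −1.07. The Lum call was lost under all 4 other scalings, the count-like columns among them, which kept the 16. Summed over the 22 list members in the table the level was between 9651 and 11951 FPKM in GelMA 4W and between 4920 and 5072 FPKM in MFN+GelMA 4W, and Tcf21 was listed at 0 in all libraries. Pdgfra, a receptor that marks fibroblasts, fell by 0.91 (SE 0.10, limma adjusted p = 0.000140). The mean over the 21 markers was between 6.09 and 6.34 in MFN+GelMA 4W and between 6.76 and 7.53 in the other libraries, on the log2(FPKM + 1) scale. The mean over the 16 Hox genes was between 0.97 and 1.42 in MFN+GelMA 4W, and the other libraries lay between 1.32 and 2.10, so that GelMA 2W replicate 3 fell within the MFN+GelMA 4W range. The Hox mean minus the fibroblast mean was −5.12, −4.93 and −5.01 in MFN+GelMA 4W and −5.43, −5.30 and −5.39 in GelMA 4W. On this scale the Hox mean was thus not lower relative to the fibroblast mean in MFN+GelMA 4W. Since low values are compressed on this scale, that comparison is a description, and its direction depends on the value added before the logarithm. With 0.1 added in place of 1, the median log2 fold change of the 16 Hox genes at 4 weeks was −1.26 in place of −0.68. In bulk tissue fewer fibroblasts and less Hox RNA per fibroblast cannot be told apart.

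With the fibroblast mean as a covariate, 0 of the 16 Hox genes and 0 of the 12270 tested genes passed at 4 weeks. The covariate separates the MFN+GelMA 4W libraries from all others, and the SE of Hoxc8 rose from 0.19 to 0.68, so that the Hoxc8 estimate of 0.18 in that fit is within its error. The estimates of the 7 genes ran from −1.92 (SE 0.78) for Hoxc4 to 1.46 (SE 0.88) for Hoxb3.

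**Figure D4:**
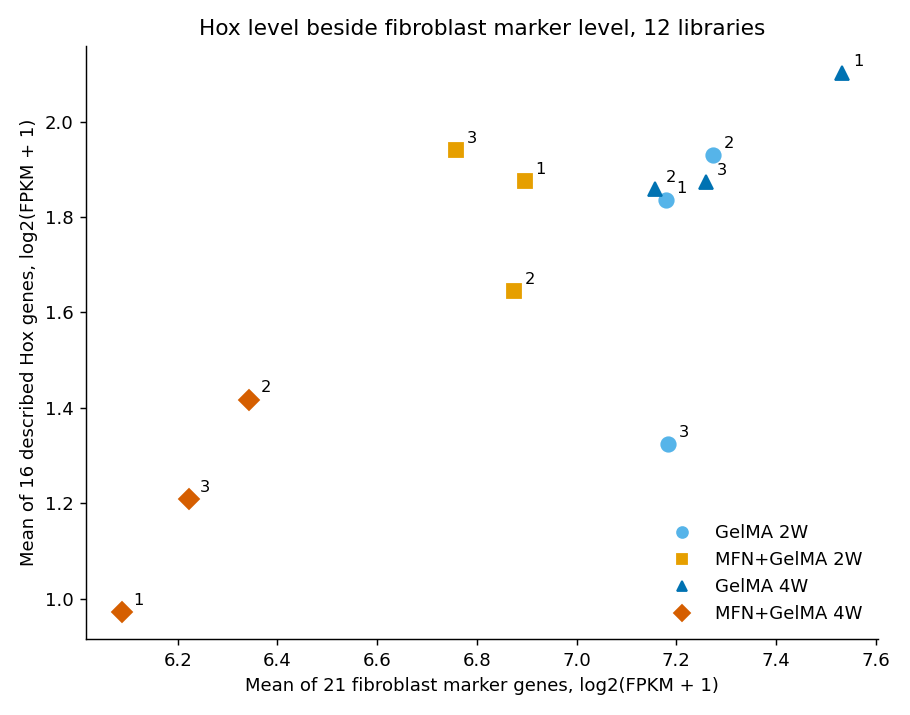
Mean of the 16 described Hox genes (vertical axis) against the mean of 21 fibroblast markers (horizontal axis), both as log2(FPKM + 1), 1 point per library with its replicate number. The MFN+GelMA 4W libraries have the 3 lowest fibroblast means, and GelMA 2W replicate 3 has a Hox mean of 1.32 with a fibroblast mean of 7.18.

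Markers of other cell types also moved at 4 weeks, and their part in the Hox result was not tested. The counts at 4 weeks below stand beside 15.3% of all tested genes called higher and 9.27% called lower. Of 12 macrophage markers 6 rose and 0 fell, with a median of 0.74, and their summed level was between 5467 and 9825 FPKM in GelMA 4W and between 16324 and 16948 FPKM in MFN+GelMA 4W. Lyz2 alone held most of the MFN+GelMA 4W sum, at 12540 to 13840 FPKM, beside 3056 to 7057 FPKM in GelMA 4W. Of 10 endothelial markers 4 fell and 0 rose, with a median of −1.18 and summed levels of 262.1 to 406.8 FPKM against 137.9 to 174.8 FPKM. Of 10 smooth muscle and pericyte markers 5 fell and 0 rose, with a median of −1.04 and summed levels of 310.8 to 397.6 FPKM against 172.7 to 217.9 FPKM. These 3 lists thus differed without overlap in their sums. Of 11 adipocyte markers 1 fell, with a median of −2.49, but the summed levels of 2397 to 13364 FPKM and 4916 to 6084 FPKM overlapped. Of 7 Schwann cell markers 1 rose, Pmp22, a call lost under all 4 other scalings, and 2 fell, with summed levels of 381.2 to 599.7 FPKM against 367.3 to 433.9 FPKM. Of 4 muscle fibre markers 1 fell, with sums of 26.2 to 36.9 FPKM against 11.5 to 21.9 FPKM. Tnnt3 held most of these sums, and Acta1 was at most 0.662 FPKM in these libraries. Of 2 keratinocyte markers 1 rose, with sums of 1.96 to 2.57 FPKM against 6.17 to 7.18 FPKM, and Krt5 was listed at 0. Col17a1 held most of the MFN+GelMA 4W sum, at 5.08 to 5.88 FPKM. Such sums follow their most abundant members and do not measure cell content. Satellite cell markers had 0 tested genes, with 5 of 7 listed at 0 in all libraries. At 2 weeks, where 0 Hox genes and 0.497% of all tested genes were called, 1 of the 21 fibroblast markers was called. This was Pi16, which fell by 1.73 (SE 0.20, limma adjusted p = 0.00487). Of the 21 markers 10 had an unadjusted p under 0.05 in limma, beside 1742 of all 12270 tested genes. The fibroblast mean was 6.76 to 6.90 in MFN+GelMA 2W and 7.18 to 7.27 in GelMA 2W, without overlap. The median log2 fold change was −0.19 for the markers and 0.09 for the 16 Hox genes.

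Of 8 tested TALE cofactors, with which Hox proteins bind DNA, 4 fell and 1 rose at 4 weeks, beside 9.27% of all tested genes called lower and 15.3% called higher. Their median was −0.59. Meis2 had 10.3, 10.4 and 8.504 FPKM in GelMA 4W and 4.34, 3.86 and 3.46 FPKM in MFN+GelMA 4W. It fell by 1.13 (SE 0.15, limma adjusted p = 0.000411), and its groups did not overlap. Meis1 fell by 0.79 and Pknox2 by 0.85, whereas Meis3 rose by 1.16. At 2 weeks 0 of 8 passed in limma, and 2 had an unadjusted p under 0.05, beside 1742 of all 12270 tested genes.

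The Polycomb and trithorax regulators, which hold Hox genes silent or active, did not pass in 24 of 27 cases at 4 weeks. At 4 weeks 2 of 27 rose, Eed by 0.65 and Ezh2 by 0.56, both subunits of the methyltransferase complex that silences Hox loci. The Ezh2 call was lost under 3 of 4 other scalings. The Polycomb gene Cbx6 fell by 1.03 (SE 0.20, limma adjusted p = 0.00285), and the median was 0.01. Both shares are below those of all tested genes, 15.3% called higher and 9.27% called lower. At 2 weeks 0 of 27 passed in limma, and 2 had an unadjusted p under 0.05, beside 1742 of all 12270 tested genes.

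Retinoic acid is a classical inducer of Hox genes. At 2 weeks 1 gene of its pathway rose and 1 fell, and 11 of 13 tested genes did not pass, beside 0.497% of all tested genes called. Aldh1a3, which makes retinoic acid, fell by 1.66 (SE 0.21, limma adjusted p = 0.00679). At 4 weeks 2 rose and 3 fell, beside 15.3% and 9.27% of all tested genes. Dhrs3, a retinal reductase, rose by 0.51, a call lost under all 4 other scalings, while Aldh1a3 fell by 2.37, the binding protein Crabp1 by 1.92 and the receptor Rara by 0.78.

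Other factors of body site also gave values. Of 23 genes listed, 7 were tested. Tbx4 and Pitx1, which specify the hindlimb, were listed at 0 in 12 and in 11 libraries, and Tbx5, which specifies the forelimb, reached at most 0.302 FPKM. Zic1, a factor of dorsal mesoderm and neural tissue, had 9.86, 10.5 and 11.4 FPKM in GelMA 2W and 0, 0.333 and 0.162 FPKM in MFN+GelMA 2W. At 4 weeks it had 13.8, 10.4 and 11.1 FPKM in GelMA and 0.601, 1.08 and 0.287 FPKM in MFN+GelMA. Its groups were thus far apart at both times. The log2 fold change was −3.32 (SE 0.20, limma adjusted p = 1.346e-05) at 2 weeks and −2.97 (SE 0.20, limma adjusted p = 1.478e-05) at 4 weeks. Hox genes were called between the materials at 4 weeks only, but that does not date their change. For Hoxb3, Hoxc6 and Hoxc8 the interaction of material and time did not pass, with limma adjusted p of 0.1445, 0.7567 and 0.1475. Hoxc6 had estimates of −0.45 at 2 weeks and −0.59 at 4 weeks. Meox2, Shox2 and Tbx15, mesodermal homeobox and T-box genes, also fell at 4 weeks, with log2 fold changes of −1.499, −0.87 and −0.84, so that 4 of 7 fell and 0 rose, beside 9.27% and 15.3% of all tested genes. At 2 weeks Meox1, a somite gene, rose by 1.77 (SE 0.24, limma adjusted p = 0.00811).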

How the data were processed

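RNA was profiled by sequencing of ribosomal-RNA-depleted total RNA in 12 rat tissue libraries, with a stranded kit, per the labels' protocols. The submitters' processing notes name cutadapt 1.9.3, HISAT2, Cuffdiff and the rn6 genome; the annotation, strand setting and further versions are not stated there. Per the file headers, 12 deposited columns hold FPKM, the tested unit, and 12 hold a count-like signal that the authors scaled, in steps of 0.875 to 1.08 per library. No count model was used; total signal divided by the step gives the fragments. All 24 columns were mapped by name.

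Rows sharing a symbol were summed, except Hoxa5, giving 21798 genes. The 12270 genes that reached 1 FPKM in 3 or more libraries were tested on log2(FPKM + 1) with limma 3.58.1 in R 4.3.3, with a mean for each group fitted to all libraries together, a trend of spread with intensity, 8 residual and 3.28 prior degrees of freedom, two-sided tests, Benjamini-Hochberg adjustment and a threshold of 0.05, for 5 contrasts. The fit was tested on simulated data. All Hox rows are accounted for; called Hox genes are named. Called list members are counted, and up to 4 a list with the smallest p may be named; Lum and Pmp22 were named after their values were seen, and some members are not reported here by name. The Hox genes, the lists (185 symbols, 7 of them not analysed here), the tests and the 3 libraries that stand apart were chosen with earlier results of these data known. The alternatives are other pseudocounts, filters, scalings, spread estimates, thresholds, the count-like columns, a replicate block, a fibroblast covariate and leaving out libraries. FPKM depends on the other genes of a library, so that a few abundant genes can shift all others. Figures were drawn with matplotlib 3.10.9.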

Additional observations from a re-analysis of the deposited data

Results flagged for a closer look

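The material effect differed between 4 and 2 weeks for 4 of the 16 described Hox genes. The test was the interaction in limma with Benjamini-Hochberg adjustment over all tested genes, 4.98% of which were called lower. The differences were −1.90 for Hoxb9, −1.11 for Hoxc4, −1.38 for Hoxd4 and −1.17 for Hoxd8, with adjusted p of 0.0370, 0.0216, 0.0164 and 0.0465. The effect of MFN+GelMA against GelMA was more negative at 4 weeks in each.

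The same test passed for 8 genes of the regulator and body site lists, beside 1727 of all 12270 tested genes. Those lists held 8 tested cofactors, 27 chromatin regulators, 13 retinoic acid genes and 7 body site factors. The share that passed was thus close to that of all genes. Among the chromatin regulators the difference was −0.92 for Cbx6, 0.91 for Eed and −0.67 for Kdm6b, a demethylase that opposes Polycomb. It was −0.91 for the cofactor Meis2 and −1.13 for the retinoic acid receptor Rara. Among the mesodermal factors it was −1.68 for Meox1, −1.46 for Meox2 and −0.72 for Tbx15. Eed alone of these 8 had a positive difference. The limma adjusted p values ran from 0.00546 for Rara to 0.0480 for Tbx15.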

How the results depend on the processing

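All alternatives were planned. At 4 weeks 7 Hox genes were called, against 4 with a filter on a mean of 2 FPKM, 0 with the fibroblast covariate and 2 at a threshold of 0.01. In MFN+GelMA over time 3 were called, against 0 with the covariate, 6 at a threshold of 0.1 and 0 at 0.01. The interaction gave 4, against 2 with no filter, 2 with a filter on a mean of 2 FPKM, 0 with the covariate and 0 at 0.01. Without the 3 libraries that stand apart, 1 Hox gene, Hoxc10, was called at 2 weeks and 1 in GelMA over time, against 0 in each. Both comparisons then rested on 2 libraries a group. Leaving out single libraries gave 2 to 8 calls at 4 weeks, 1 to 5 in MFN+GelMA over time, 1 to 4 for the interaction and 0 to 0 in the other comparisons. Directions were kept except with the covariate, where the log2 fold change at 4 weeks was 1.46 for Hoxb3, 0.40 for Hoxc6, 0.18 for Hoxc8 and 0.12 for Hoxd4, and that of Hoxc8 over time in MFN+GelMA was 0.051; in that fit 0 genes of any kind were called at 4 weeks and the errors were larger. With the replicate number as a block the Hox calls were 0 at 2 weeks, 6 at 4 weeks, 0 in GelMA and 4 in MFN+GelMA over time and 4 for the interaction. In that fit Hoxc10 was called and Hoxc6 and Hoxd8 were not at 4 weeks, Hoxd9 was added over time in MFN+GelMA, and for the interaction Hoxc10 and Hoxd9 were called and Hoxb9 and Hoxd8 were not. Deviations of same-numbered libraries correlated between −0.058 and 0.367, with the highest values, 0.312 and 0.367, for replicates 2 and 3 in GelMA over time. The labels do not say whether a number marks a shared animal, batch or day. These correlations therefore cannot decide whether the libraries are paired. Genes near 1 FPKM rest on few fragments, which limits their precision.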
